A study of Mus musculus with 8 samples.

Results

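The mononuclear phagocyte genes of the renal cortex were compared between 4 young and 4 aged mice in 10 genes chosen by symbol, which are Csf1, its receptor Csf1r, and the macrophage genes Emr1, Cd68, Mrc1, Lyz2, Cd14, Itgam, Tyrobp and Fcer1g. All 10 had a row among the 22609 genes counted, and all 10 passed the filter on low counts, as did 13944 genes in all. Emr1 is the older symbol of Adgre1 and is used here because the count tables use it. The mice were male C57BL6 of about 5 months (young) and 30 months (aged), untreated and with no allele or transgene named in the labels, and each gave 1 ribosome-depleted, stranded library. The study's methods text gives a somewhat higher mean age for the aged mice than the labels do. Between 14820804 and 19821429 read pairs per library were counted on genes. Values are CPM, counts scaled to a common library total, after TMM scaling for library composition, and differences between the groups were tested over all genes at once with edgeR's quasi-likelihood fit. A gene counts as changed where p, after Benjamini-Hochberg adjustment, was under 0.05 and the groups differed over 1.5-fold. By this rule 2.06% of all genes tested changed with age.

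Macrophages of the kidney lie between the tubules, take up debris and immune complexes, and depend on signals through the Csf1 receptor for survival and renewal. The receptor is a tyrosine kinase with a pair of ligands, Csf1 (macrophage colony-stimulating factor) and Il34, which tubular cells, among others, make in the kidney. Part of the resident population is seeded before birth and part is replaced by blood monocytes, which carry the integrin Itgam and the lipopolysaccharide co-receptor Cd14. RNA of the whole cortex was sequenced. Fewer macrophages, less RNA per macrophage and a change in other cells that express a gene therefore cannot be told apart in any value below.

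The proximal promoters of both Csf1 and the macrophage genes are shown because PU.1, the transcription factor that macrophages require, binds purine-rich sites in myeloid promoters. RefSeq promoters of GRCm38.p6, from 250 bases before to 50 after the start, could be matched to 6 of the 10 genes by symbol. Each printed promoter occurred exactly once on its chromosome in NCBIM37 (mm9), the build of the counts, and the coordinates are of that build. The letters GAGGAA and their reverse complement TTCCTC were searched as a purine-rich core, do not overlap each other here, and are in capitals. Promoters with either of them made up 28.3% of all 32851 promoters in the table. Among the 6 genes they occurred in Mrc1, Itgam and Cd68 and were not found in the windows of Csf1, Lyz2 and Fcer1g. The promoters of the ligand Csf1 (chr3:107563338-107563637, minus strand), of Mrc1 (chr2:14150791-14151090, plus strand) and of Itgam (chr7:135205904-135206203, plus strand) read as follows.
Csf1: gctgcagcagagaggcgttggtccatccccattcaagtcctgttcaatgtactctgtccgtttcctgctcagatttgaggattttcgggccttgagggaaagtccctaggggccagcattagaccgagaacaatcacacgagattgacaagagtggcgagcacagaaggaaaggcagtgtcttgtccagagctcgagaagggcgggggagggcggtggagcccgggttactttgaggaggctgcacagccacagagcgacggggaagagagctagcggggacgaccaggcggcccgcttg
Mrc1: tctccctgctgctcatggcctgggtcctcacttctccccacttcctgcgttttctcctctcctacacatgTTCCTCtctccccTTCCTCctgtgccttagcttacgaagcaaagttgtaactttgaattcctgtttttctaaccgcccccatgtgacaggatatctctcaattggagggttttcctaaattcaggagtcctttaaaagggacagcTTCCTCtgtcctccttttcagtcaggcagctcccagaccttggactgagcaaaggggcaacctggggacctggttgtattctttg
Itgam: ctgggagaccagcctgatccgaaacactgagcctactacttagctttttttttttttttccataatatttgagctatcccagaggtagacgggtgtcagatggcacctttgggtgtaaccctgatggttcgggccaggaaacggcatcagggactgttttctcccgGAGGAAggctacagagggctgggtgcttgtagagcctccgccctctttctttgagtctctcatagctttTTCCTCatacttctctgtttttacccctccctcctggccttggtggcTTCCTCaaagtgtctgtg
Mrc1 and Itgam each held 3 copies of these letters. A match is a description of the letters only.

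Csf1 lies on chromosome 3 of mm9 from 107543966 to 107563387. It stood at 13.8, 14.0, 15.7 and 18.1 CPM in aged mice 1 to 4, against 12.3, 15.2, 13.9 and 13.4 CPM in young mice 1 to 4. The groups overlapped, and aged mouse 4 was the highest. The mean was 15.4 ± 1.98 CPM in the aged group and 13.7 ± 1.23 CPM in the young group (SD, n = 4 each). The log2 fold change of 0.17 (95% interval -0.10 to 0.44, adjusted p = 0.387) did not pass the threshold, and its interval ended short of a 1.5-fold difference.

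Il34, the other ligand, is not among the 10 genes but was listed as a partner of Csf1r. It stood at 5.65, 5.53, 5.08 and 20.9 CPM in aged mice 1 to 4, against 35.7, 31.6, 26.9 and 30.1 CPM in young mice 1 to 4. Every aged mouse lay below every young mouse, as in 10% of all genes tested, and aged mouse 4 lay closest to the young group. The log2 fold change was -1.74 (SE 0.44, adjusted p = 0.0659), so Il34 did not pass the threshold. Without aged mouse 4 it was -2.52 (adjusted p = 2.65e-04), and with DESeq2 and limma-voom on all 8 mice the adjusted p was 0.00143 and 0.0184. Over the other fits the adjusted p reached 0.162, without young mouse 1.

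The balance of the ligands was taken as counts of Csf1 per count of Il34 within each library, which no scaling affects. The ratio was 2.44, 2.54, 3.09 and 0.865 in aged mice 1 to 4, against 0.344, 0.482, 0.516 and 0.445 in young mice 1 to 4. The groups did not overlap, and the log2 ratio averaged 2.19 more in the aged group (two-sided exact permutation test, p = 0.0286, adjusted p = 0.0286 over the 9 ratios compared). This p is the smallest that 4 against 4 mice allow. Of all other genes tested, 84.0% had a ratio to Il34 that was higher in every aged than in every young mouse, so such a separation was not particular to Csf1. With any one young mouse left out, the exact permutation p of the ratio was 0.0571.

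Csf1r was the one member that changed. It lies on chromosome 18 of mm9 from 61265226 to 61291803, where aged mice 1 to 4 had 503, 516, 447 and 765 counts and young mice 1 to 4 had 1221, 902, 774 and 1229. On the CPM scale these were 24.7, 33.6, 23.9 and 41.7 in aged and 75.3, 47.7, 52.6 and 72.6 in young mice. Every aged mouse lay below every young mouse, as in 10% of all genes tested, and aged mouse 4 and young mouse 2 lay nearest to each other. The mean fell from 62.0 ± 13.9 CPM in the young group to 31.0 ± 8.38 CPM in the aged group (SD, n = 4 each), a log2 fold change of -1.0 (SE 0.22, adjusted p = 0.0472). Csf1r ranked at 347 by p.

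**Figure D1:**
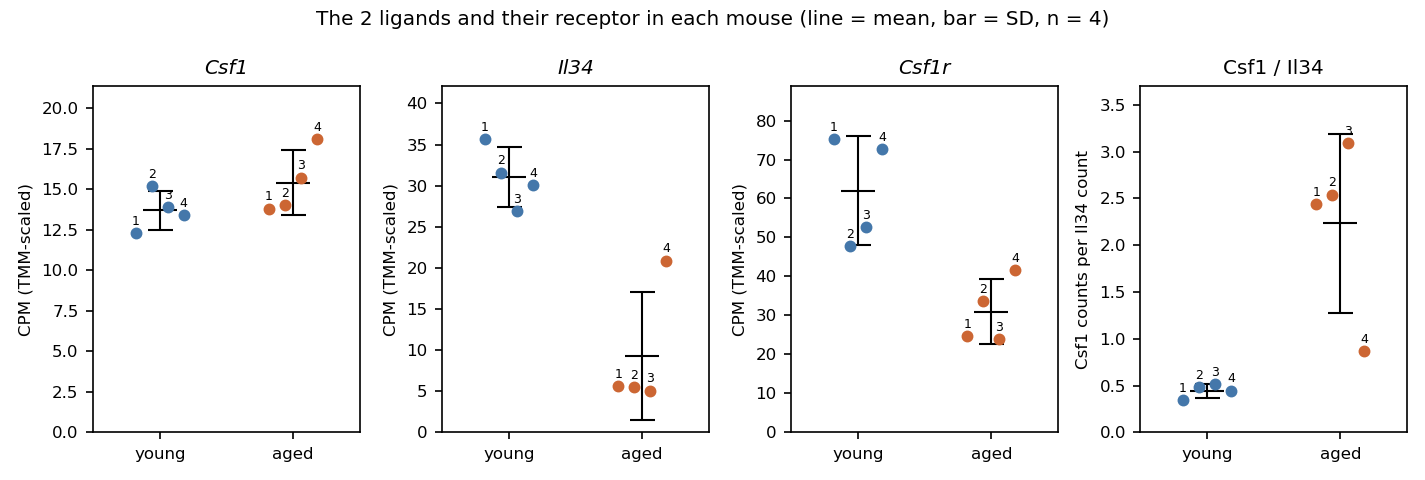
Csf1, Il34 and Csf1r in TMM-scaled CPM and the counts of Csf1 per count of Il34, with 1 numbered point per mouse, a line at the mean and bars of 1 SD (n = 4 young and 4 aged mice). Csf1 overlapped between the groups, while Il34 and Csf1r were lower in every aged mouse, with aged mouse 4 nearest to the young mice at 20.9 CPM for Il34 and 41.7 CPM for Csf1r.

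The call on Csf1r lay close to the threshold. Its adjusted p was 0.0737 without aged mouse 2, 0.0821 without aged mouse 3, and 0.131, 0.0795, 0.0967 and 0.132 without young mice 1 to 4, and it was 0.0164 without aged mouse 4. Its log2 fold change stayed between -1.18 and -0.90 over the 16 other fits, of which 9 called it. A BLAST search of its transcript gave no alignment of at least 100 nt and 98% identity elsewhere in mm9, and the same held for each of the 10 genes. Such a search can miss identical stretches within a longer, less similar alignment. Lyz2 shares 24 exact windows of 100 nt with the Lyz1 transcript, as given below.

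Csf1r lies downstream of Pdgfrb on the same strand, 20510 nt from its end. Pdgfrb, a receptor of pericytes and fibroblasts, had a log2 fold change of -0.17 (95% interval -0.55 to 0.22, adjusted p = 0.563), and its groups overlapped. Hmgxb3 overlaps Csf1r on the opposite strand, and the read pairs were counted by strand. Hmgxb3 had a log2 fold change of -0.24 (adjusted p = 0.149).

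None of the 10 listed proximal tubule markers passed the test, 3 of them had a log2 fold change above 0, and their median was -0.21. Their summed level ranged from 15000 to 43600 CPM in aged and from 46000 to 52700 CPM in young mice, with aged mouse 1 at 929 CPM and aged mouse 4 at 14300 CPM for Kap, an androgen-responsive gene that made up much of the sum in young mice. Without Kap, a choice made after seeing the data, the sums were 14100 to 29300 CPM in aged and 25900 to 30400 CPM in young mice and overlapped. Lrp2 and Slc34a1 were lowest in aged mouse 1, at 3860 and 2480 CPM. The other mice had 8730 to 11200 CPM and 5430 to 7220 CPM. Slc22a8, Slc27a2 and Slc5a12 were not lowest in that mouse. The part of proximal tubule cells in the result on Csf1r was not tested.

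Emr1 encodes F4/80, the surface protein most used to mark mouse macrophages. It stood at 4.71, 8.52, 6.89 and 17.3 CPM in aged mice 1 to 4, against 6.29, 6.40, 5.30 and 4.90 CPM in young mice 1 to 4. The groups overlapped, since aged mouse 1 was the lowest of all 8 mice and aged mouse 4 by far the highest. Emr1 had a log2 fold change of 0.71 (95% interval -0.10 to 1.52, adjusted p = 0.245), and 0.22 without aged mouse 4.

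Mrc1, the mannose receptor CD206 of macrophages and some endothelial cells, was the only other member whose groups were separate. It stood at 12.3, 10.5, 10.5 and 15.7 CPM in aged mice 1 to 4, against 8.01, 8.89, 6.12 and 4.61 CPM in young mice 1 to 4. A gap in this direction was seen in 8.85% of all genes tested. The log2 fold change of 0.83 (SE 0.22, adjusted p = 0.0749) did not pass the threshold. The adjusted p was 0.0117 with DESeq2 and 0.0432 with library sizes only, and ranged up to 0.177, without young mouse 3.

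Cd68, a lysosomal glycoprotein of phagocytes, stood at 3.25 to 4.30 CPM in aged mice. In young mice it stood at 2.72 to 4.99 CPM, with young mouse 1 the highest of all 8 mice. Cd68 had a log2 fold change of 0.13 (95% interval -0.40 to 0.67, adjusted p = 0.747).

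Lyz2, the lysozyme of macrophages and neutrophils, was at 13.7, 25.6, 13.5 and 48.7 CPM in aged mice 1 to 4, against 20.2, 15, 10.8 and 12.5 CPM in young mice 1 to 4. Aged mouse 4 stood highest, and the other aged mice spread over and just above the young range. The log2 fold change of 0.79 (95% interval -0.14 to 1.72, adjusted p = 0.254) became 0.26 without aged mouse 4. The neighboring gene Lyz1, the lysozyme of Paneth cells, had at most 6 counts in any library.

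Both lysozyme genes have coding sequences of 447 nt that are 95.1% identical, differing at 22 positions. The first 120 nt of each are shown because they tell where reads can separate the genes, with the bases that differ in capitals.
Lyz2: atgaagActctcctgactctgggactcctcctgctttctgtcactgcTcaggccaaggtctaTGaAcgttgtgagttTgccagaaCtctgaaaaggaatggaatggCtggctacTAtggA
Lyz1: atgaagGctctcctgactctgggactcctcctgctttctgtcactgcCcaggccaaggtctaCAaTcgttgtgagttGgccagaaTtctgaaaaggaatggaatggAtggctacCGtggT
This stretch held 11 of the differences. Of the 1214 windows of 100 nt in the Lyz2 transcript, 24 occurred exactly in that of Lyz1.

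Itgam, the alpha chain CD11b of an integrin on monocytes, macrophages and neutrophils, was at 4.52, 5.27, 5.18 and 15.7 CPM in aged mice 1 to 4, against 6.04, 3.44, 4.76 and 6.79 CPM in young mice 1 to 4. Only aged mouse 4 lay above the young range. Itgam had a log2 fold change of 0.55 (95% interval -0.41 to 1.5, adjusted p = 0.432), and it reversed to -0.08 without aged mouse 4. Its partner chain Itgb2 also stood apart in 1 mouse, with aged mouse 4 at 13 CPM and the other 7 mice between 5.72 and 7.83 CPM, and its log2 fold change of 0.24 (adjusted p = 0.593) reversed to -0.12 without that mouse.

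Cd14, which hands lipopolysaccharide to the Tlr4 receptor, was at 15.9, 7.74, 4.65 and 7.95 CPM in aged mice 1 to 4, against 6.66, 3.07, 4.49 and 4.25 CPM in young mice 1 to 4. Here aged mouse 1 rather than aged mouse 4 was the highest. The log2 fold change of 0.98 (95% interval 0.13 to 1.83, adjusted p = 0.151) did not pass the threshold and was 0.56 without aged mouse 1. Among the partners of Cd14, Tlr4 had a log2 fold change of 0.73 (adjusted p = 0.0860). It was higher in every aged than in every young mouse, as were 8.85% of all genes tested. The co-receptor Ly96 was at 0.11 (adjusted p = 0.798), with -0.12 without aged mouse 3, and the serum carrier Lbp was at 0.39 (adjusted p = 0.369).

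Tyrobp (DAP12) and Fcer1g are small membrane adaptors that carry the activation motifs for receptors without a signaling tail of their own, such as Trem2 and the activating Fc receptors. Tyrobp was at 3.49, 5.27, 4.81 and 7.19 CPM in aged mice 1 to 4, against 4.68, 4.39, 4.69 and 4.61 CPM in young mice 1 to 4. The young mice lay close together and the aged mice spread on both sides of them. For Tyrobp the log2 fold change was 0.17 (95% interval -0.31 to 0.66, adjusted p = 0.631) and -0.03 without aged mouse 4.

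Fcer1g was at 4.42, 6.11, 4.70 and 8.23 CPM in aged mice 1 to 4, against 5.61, 4.60, 4.42 and 3.90 CPM in young mice 1 to 4. The groups overlapped, with a log2 fold change of 0.34 (95% interval -0.17 to 0.85, adjusted p = 0.364). Of the Fc receptors that need Fcer1g, Fcgr3 had a log2 fold change of 0.67 (adjusted p = 0.109), Fcgr4 of 0.50 (adjusted p = 0.394) and Fcgr1 of 0.72 (adjusted p = 0.421). The value of Fcgr1 rested on aged mouse 4, at 5.72 CPM against 0.688 to 1.92 CPM in the other 7 mice, and was -0.08 without it. Trem2 had at most 8 counts in any library and could not be tested.

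**Figure D2:**
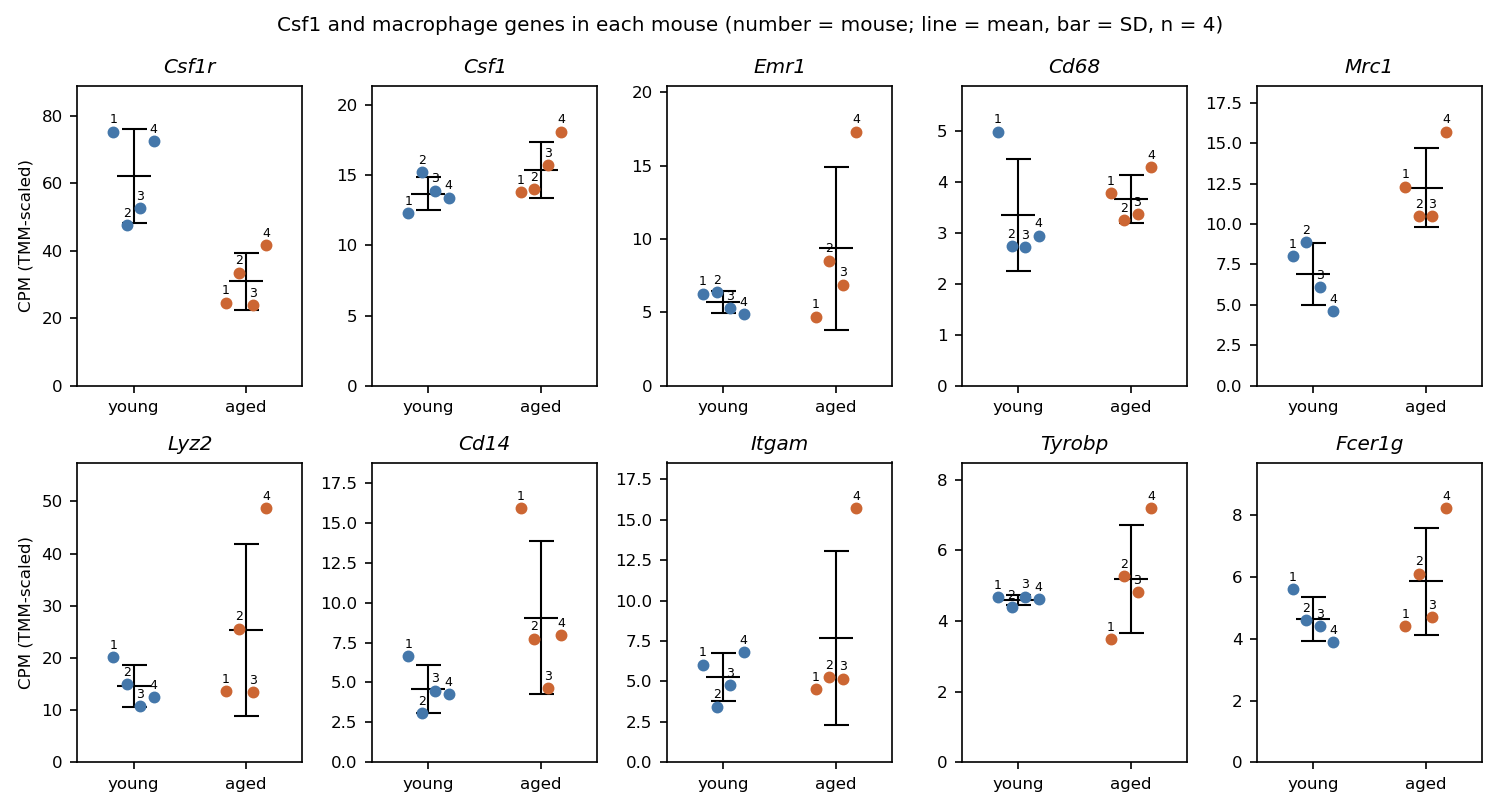
TMM-scaled CPM of the 10 genes in each mouse, with 1 numbered point per mouse, a line at the mean and bars of 1 SD (n = 4 young and 4 aged mice). The groups are separate in Csf1r and Mrc1, and aged mouse 4 is the highest mouse in Emr1, Mrc1, Lyz2, Itgam, Tyrobp and Fcer1g.

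Among the 10 genes, 1 changed, in the direction of lower values in aged mice, where 0.889% of all genes tested changed in that direction. None of the 10 was higher by the rule, against 1.17% of all genes. By the adjusted p alone, which 2.95% of all genes passed, Csf1r was again the only one. At an unadjusted p below 0.05, which 25.5% of all genes reached, Mrc1 and Cd14 were higher and Csf1r was lower. The 9 genes other than Csf1r all had a log2 fold change above 0, as did 54.1% of all genes tested, and the median over the 10 genes was 0.44 against 0.03 over all genes.

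The 8 macrophage genes other than Csf1r had a median log2 fold change of 0.63, which rested largely on aged mouse 4. In log2 CPM they averaged 1.11 above the young mean in aged mouse 4, and 0.25, 0.44 and 0.14 above it in aged mice 1 to 3. The young mice spread from -0.12 to 0.33 on the same scale, with young mouse 1 the highest, so aged mice 1 and 3 lay inside the young range. Without aged mouse 4 the median was 0.18, and 6 of the 8 values were above 0. Ptprc (CD45), which all leukocytes carry, was also highest in aged mouse 4, at 39.8 CPM against 14.0 to 26.7 CPM in the other 7 mice, and its part in this was not tested. Csf1r went the other way in the same libraries, at -1.30, -0.86, -1.34 and -0.54 relative to the young mean in aged mice 1 to 4.

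**Figure D3:**
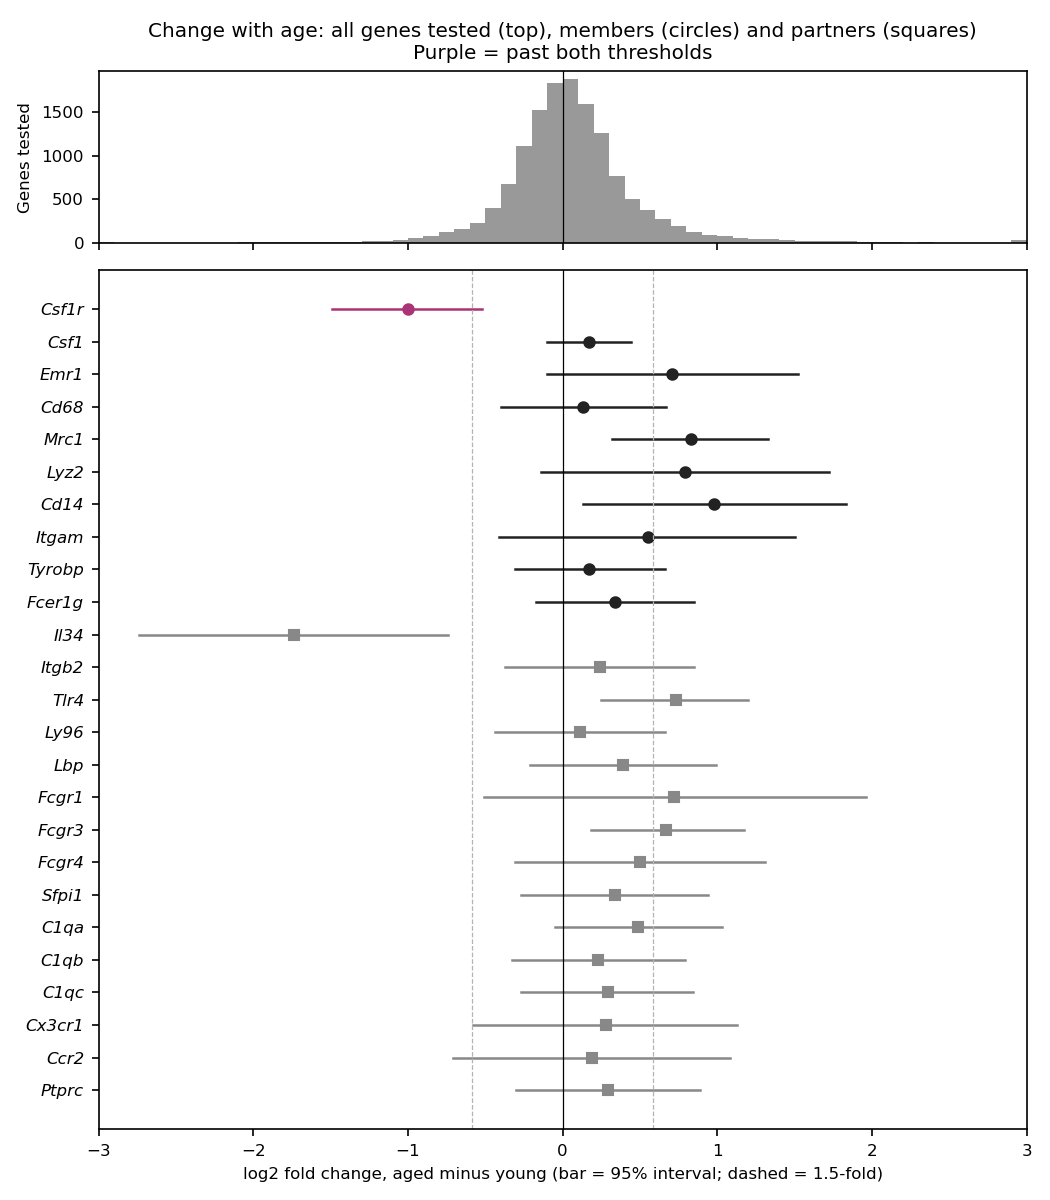
Log2 fold change with age for all 13944 genes tested (upper histogram, values beyond 3 in either direction placed in the end bins) and for the 10 genes (circles) and their partners (squares), with 95% intervals from edgeR's quasi-likelihood fit. Csf1r, at -1.0, is the only one past both thresholds, Il34 lies further left at -1.74 with a wider interval, and the other 9 members lie between 0.13 and 0.98.

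Because Csf1r is used to mark macrophages, the other macrophage genes were also set against it within each library. Emr1 had 0.191, 0.254, 0.289 and 0.416 counts per Csf1r count in aged mice 1 to 4, against 0.0835, 0.134, 0.101 and 0.0675 in young mice 1 to 4. The groups were separate, and the log2 ratio averaged 1.56 more in the aged group (two-sided exact permutation test, p = 0.0286, adjusted p = 0.0286 over 9 ratios). Fcer1g had the tightest aged values, with 0.179, 0.182, 0.197 and 0.197 counts per Csf1r count in aged mice 1 to 4 against 0.0537 to 0.0965 in young mice, a log2 difference of 1.32 (exact permutation p = 0.0286).

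The ratios of the other 6 genes to Csf1r were higher by between 1.14 (Tyrobp) and 1.90 (Cd14) on the log2 scale, and in each of them the lowest aged mouse lay above the highest young mouse (exact permutation p = 0.0286 for each). The 8 ratios share the denominator Csf1r and are not independent. Of all other genes tested, 67.0% had a ratio to Csf1r that was higher in every aged mouse, so such a separation was not particular to macrophage genes. Without aged mouse 1 the ratio of Mrc1 had an exact permutation p of 0.0571, and the other 7 ratios to Csf1r stayed at an adjusted p below 0.05 with any one mouse left out.

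**Figure D4:**
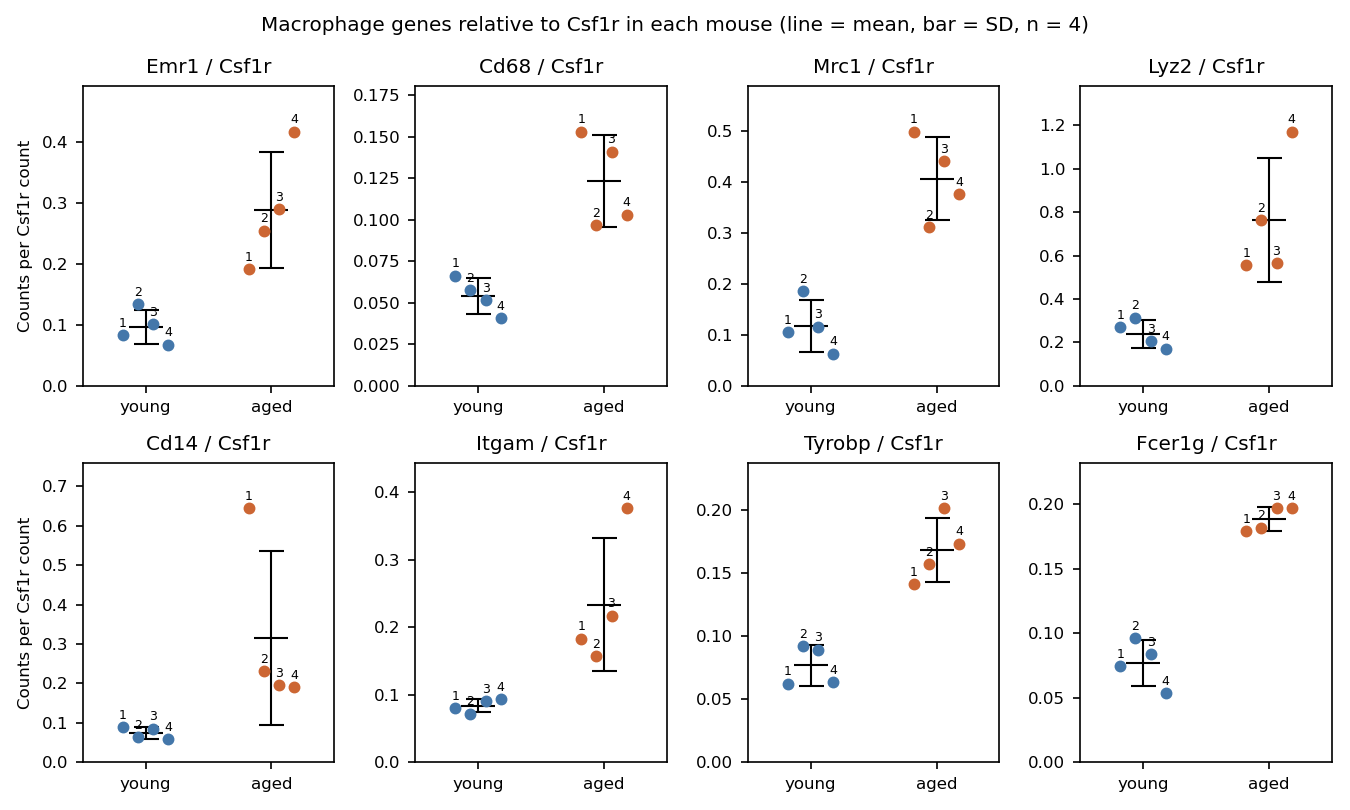
Counts of each of the 8 other macrophage genes per count of Csf1r in the same library, with 1 numbered point per mouse, a line at the mean and bars of 1 SD (n = 4 young and 4 aged mice). All 8 ratios are separate between the groups, from 0.0537 to 0.0965 in young and 0.179 to 0.197 in aged mice for Fcer1g.

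Levels were compared between genes per length, as FPKM from exon lengths in mm9. In young mice Csf1r was first with 11.9 ± 2.66 FPKM (SD, n = 4), followed by Lyz2 with 11.1 ± 3.12 and Tyrobp with 8.14 ± 0.250 FPKM. The ranges of these neighbors overlapped. Fcer1g at 5.79 ± 0.895, Cd14 at 2.94 ± 0.952, Cd68 at 2.67 ± 0.873 and Csf1 at 2.60 ± 0.233 FPKM came next, with overlapping ranges from Cd14 to Csf1, and Emr1, Mrc1 and Itgam were lowest at 1.76 ± 0.227, 1.16 ± 0.323 and 0.825 ± 0.231 FPKM. In aged mice Csf1r was the fourth of the 10 at 5.92 ± 1.60 FPKM, behind Lyz2 at 19.3 ± 12.6, Tyrobp at 9.20 ± 2.72 and Fcer1g at 7.33 ± 2.17 FPKM.

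Other genes of these pathways were read from lists. In the list of Csf1 receptor signaling, 23 of 24 genes could be tested and Csf1r was the only one changed, with a median log2 fold change of 0.06. Src, a kinase of the pathway that most cells express, had a log2 fold change of -0.46 (adjusted p = 0.0330) and stayed under the 1.5-fold threshold. Among 11 macrophage transcription factors tested, Irf5, which drives inflammatory genes in macrophages, was the only one changed. It stood at 5.45, 7.94, 5.4 and 10.8 CPM in aged mice 1 to 4, against 19.0, 13.3, 14.4 and 15 CPM in young mice 1 to 4. Irf5 was lower in every aged than in every young mouse, as were 10% of all genes tested. Its log2 fold change was -1.06 (SE 0.23, adjusted p = 0.0495), and 6 of the 16 other fits called it, with an adjusted p of up to 0.138, without young mouse 1. Sfpi1, the older symbol for the gene of PU.1, had a log2 fold change of 0.34 (95% interval -0.27 to 0.94, adjusted p = 0.448).

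In the list of receptors on ITAM adaptors, Cd33 was changed among 8 of 19 genes that could be tested. Cd33, a lectin of myeloid cells, was at 3.47 to 4.22 CPM in aged and 1.42 to 2.33 CPM in young mice, a log2 fold change of 1.02 (SE 0.20, adjusted p = 0.0390). The call was lost with the replicate numbers as a block, and without aged mouse 2 or 3 or any one young mouse, up to an adjusted p of 0.126. None of the 22 tested genes of the Cd14 and Toll-like receptor list and none of the 19 tested phagocyte and scavenger genes changed. Of the former, 20 had a log2 fold change above 0, as did 54.1% of all genes tested. Their median was 0.41 against 0.03 over all genes.

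The leukocyte integrin list held 10 tested genes, of which C3 changed. C3, the complement component whose fragment binds the integrin of Itgam, is also made by tubular cells, and rose from 29.4 ± 3.36 CPM in the young group to 80.6 ± 29.8 CPM in the aged group (SD, n = 4 each). Its log2 fold change was 1.45 (SE 0.23, adjusted p = 0.0267), with a call lost only when a young mouse was left out, up to an adjusted p of 0.102.

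Of the 16 tested markers of resident macrophages, Apoe was the only one changed. It encodes a lipid carrier that many kidney cells express, and it stood at 636, 410, 389 and 179 CPM in aged mice 1 to 4 and at 84.1 to 113 CPM in young mice. Aged mouse 4, the highest in most macrophage genes, was the lowest aged mouse in Apoe. Apoe had a log2 fold change of 2.03 (SE 0.32, adjusted p = 0.0267), and the adjusted p was 0.0513 without aged mouse 2, 0.0508 without aged mouse 3 and up to 0.102 without a young mouse. The complement genes C1qa, C1qb and C1qc, which macrophages make in the kidney, had log2 fold changes of 0.49, 0.23 and 0.29 (adjusted p = 0.233, 0.574 and 0.479), each highest in aged mouse 4. Cx3cr1, the fractalkine receptor, had one of 0.28 (adjusted p = 0.666).

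None of the 8 tested markers of infiltrating monocytes changed. Ccr2, the receptor by which monocytes leave the marrow, was at 4.57, 18.9, 15.1 and 18.1 CPM in aged mice 1 to 4, against 16.6, 14.2, 9.66 and 9.10 CPM in young mice 1 to 4, with a log2 fold change of 0.19 (adjusted p = 0.789). Aged mouse 1 was the lowest of all 8. Ly6c2 had at most 25 counts in any library and a log2 fold change of 0.63 (adjusted p = 0.525). The pan-leukocyte gene Ptprc had one of 0.29 (95% interval -0.30 to 0.89, adjusted p = 0.497).

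Markers of other leukocytes were read in the same way. Of 12 neutrophil markers counted, 3 (Camp, Elane and Mpo) were at 0 in every library and 4 could be tested, none changed, and their summed level was 9.46 to 10.9 CPM in aged and 4.60 to 7.74 CPM in young mice. These sums did not overlap. Of the 4 tested, S100a9 alone was higher in every aged than in every young mouse, as were 8.85% of all genes tested. Ltf, too low to test, went the other way, with means of 0.276 CPM in aged and 0.461 CPM in young mice. The part of neutrophils in Lyz2, Itgam and Fcer1g was not tested. Dendritic cell markers summed to 16.1 to 22.1 CPM in aged and 15.9 to 19.8 CPM in young mice, and T cell markers to 7.02 to 10.2 and 3.31 to 7.58 CPM, with no call in either list. NK cell markers summed to at most 4.09 CPM and mast cell markers to at most 1.36 CPM in any mouse. B cell and plasma cell markers summed to 33.9 to 100 CPM in aged and 9.57 to 17.1 CPM in young mice, which did not overlap. In this list only Igj, the joining chain of secreted antibodies, changed, at 31.1 to 96.5 CPM in aged and 5.29 to 13.6 CPM in young mice, with a log2 fold change of 2.65 (SE 0.45, adjusted p = 0.0311), lost when any one young mouse was left out (up to 0.118). No gene of the fibroblast, endothelial, podocyte, proximal tubule, thick limb or collecting duct lists changed. Proximal tubule markers summed to 15000 to 43600 CPM in aged and 46000 to 52700 CPM in young mice, and without Kap these sums overlapped, as given above.

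The 5 genes most like Csf1r over the 8 libraries were Irf5, Gclm, Aadat, Cyb561 and Bcl3. Likeness was the root mean square difference of log2 CPM about each gene's mean, and it was 0.142, 0.145, 0.151, 0.152 and 0.169 in that order, among 4845 genes that varied at least 0.5 times as much as Csf1r. Gclm, a subunit of the enzyme that starts glutathione synthesis, had a log2 fold change of -0.99 (adjusted p = 0.0372), and Cyb561, a membrane cytochrome, of -0.90 (adjusted p = 0.0390). Aadat, a mitochondrial aminotransferase, and Bcl3, an inhibitor-like partner of NF-kappaB, were at -0.89 and -1.02 (adjusted p = 0.0571 and 0.0529). None of the 9 other members was among these 5 genes. All 9 had a log2 fold change above 0, so their absence from genes picked for likeness to Csf1r adds nothing to those values.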

How the data were processed

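Total RNA of renal cortex was depleted of ribosomal RNA and sequenced as stranded pairs on 8 libraries, 1 per mouse. Reads were placed on mm9 by TopHat2, per the labels, and the authors deposited raw HTSeq counts per RefSeq gene, made by strand, for each library, on which all values here rest. A joint table of the same genes was not used, since its column names are not in the labels. Lines naming no gene held 59.4% to 64.5% of each table and were left out. Between 14820804 and 19821429 counts per library remained, at which 3 counts are 0.147 to 0.204 CPM. No libraries were duplicates.

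Genes were kept by filterByExpr with a minimum count of 10 and tested in edgeR 4.0.16 (R 4.3.3) with TMM scaling, two-sided and without covariates. The study's DESeq was not used here. Ratios were compared by a two-sided exact permutation test over mice on log2 counts. FPKM used GENCODE vM1 exon lengths of NCBIM37, matched by symbol for 95.7% of genes. Copies were sought with BLAST 2.17.0. Alternatives were other scalings, DESeq2 1.42.0, limma 3.58.1, other filters, a replicate block and each mouse left out. The code was tested on simulated data.

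Named genes were the 10 members, 19 direct partners, up to 3 called genes of each list and the 5 genes most like Csf1r by root mean square difference of centred log2 CPM, besides Src, the neighbors of Csf1r and a few genes chosen after their values were seen (Kap and those given last). The members and lists were chosen with earlier results of these data known. Syk, Tfec, Ly6g and Mzb1 were not analysed here. The labels number the tissues within each group, and the study's methods give 4 young and 4 aged mice.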

Additional observations from a re-analysis of the deposited data

Results flagged for a closer look

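In 8 cases the highest or lowest mouse of a group of 4 stood apart from the other 3 by Dixon's test. For independent groups of normal values, chance gives about 1 in 20, or 3.5 of the 70 groups tested. These groups are genes read in the same mice and are not independent, so the number of cases was not tested against 3.5. Aged mouse 4 stood apart in Il34 at 20.9 CPM against at most 5.65 CPM in the other aged mice (gap 0.926 of the range), in Itgam at 15.7 against 5.27 CPM (gap 0.878) and in Itgb2 at 13 against 6.36 CPM (gap 0.872). Young mouse 1 stood apart in Cd68 at 4.99 against 2.95 CPM (gap 0.866) and in Fcgr3 at 5.18 against 3.25 CPM (gap 0.836). Aged mouse 1 was low in Ccr2 at 4.57 against 15.1 CPM (gap 0.841), young mouse 3 was low in C3 at 24.4 against 30.4 CPM (gap 0.870), and aged mouse 3 was high in Igj at 96.5 against 35.9 CPM (gap 0.874).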

How the results depend on the processing

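The number of genes changed with age, 287 as reported, was 488 with library sizes only, 873 with DESeq2, 483 with limma-voom, 130 with the replicate block and from 8 (without young mouse 1) to 733 (without aged mouse 4) with 1 mouse left out, and stayed within 1.5 times under the other settings. With library sizes only, 75.4% of the calls were higher in aged mice against 56.8% as reported, and the log2 fold change over all genes had a median of 0.14 against 0.03. Of the 10 members, 2 changed with library sizes only and with DESeq2 (Csf1r and Mrc1 in both), 0 with the replicate block, and 0 to 1 with 1 mouse left out. Of the 9 ratios, 8 to 9 kept an adjusted p below 0.05 with 1 mouse left out. With the replicate block 0 did, since 4 pairs cannot give a p below 0.125. The labels do not say that the replicate numbers pair the mice, and same-numbered libraries correlated at 0.206, 0.038, 0.199 and -0.030 in their deviations from the group means, not all above 0.1, so no pairing was assumed. Aged mice 1, 2 and 3, but not 4, correlated best with the young mouse of their own number, a hint from the data and not from the design. With the block the adjusted p of Csf1r was 0.0547.

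Without aged mouse 4 the log2 fold changes of Itgam (-0.08), Tyrobp (-0.03), Itgb2 (-0.12) and Fcgr1 (-0.08) reversed, with highest values of 0.74, 0.33, 0.36 and 1.05 when another mouse was left out. Ly96 reversed to -0.12 without aged mouse 3 and reached 0.25 without aged mouse 1. None of these 5 genes passed the test under any setting, and the cause was not tested. With 4 mice a group, the 95% intervals of all 8 macrophage genes other than Csf1r reached past a 1.5-fold rise with age. Rises of that size could therefore neither be shown nor set aside in them. None of these intervals reached a 1.5-fold fall, and that of Csf1 reached 1.5-fold in neither direction.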

Other observations

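A few macrophage genes, chosen after their values were seen, stood out in 1 mouse. Marco, a scavenger receptor of some resident macrophages, had 33 counts in aged mouse 4 and 0 in the other 7 mice. Timd4, a receptor for dying cells, had 19 counts in aged mouse 4 and at most 4 elsewhere, and Cd5l, a secreted macrophage protein, had 28 counts there and at most 3 elsewhere. In aged mouse 1, Cd163, the hemoglobin scavenger receptor, stood at 6.48 CPM against 0.911 to 2.18 CPM in the other aged mice, and Lyve1, a hyaluronan receptor of lymphatic cells and some macrophages, at 4.71 CPM against 0.520 to 1.53 CPM. No group comparison was drawn from these values.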
